A study of Homo sapiens with 6 samples.

Results

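The 10 noncoding RNAs described here are 3 long RNAs that stay in the nucleus, NEAT1, MALAT1 and KCNQ1OT1, and 7 spliced RNAs whose introns carry small nucleolar RNAs (snoRNAs), GAS5, SNHG1, SNHG5, SNHG6, SNHG8, ZFAS1 and EPB41L4A-AS1. They were chosen by symbol: each is the row of the expression table whose Ensembl gene ID maps to that name. They make up 10 of 27576 rows, and all 10 passed the filter on low values, which left 21946 genes. The cells were Kasumi-1, a human acute myeloid leukaemia line with the t(8;21) fusion of RUNX1 and RUNX1T1. Control cells received 0.5% bovine serum albumin (BSA) and treated cells 10 ng/ml of recombinant human interleukin-10 (IL-10), each for 72 h in medium with 20% fetal bovine serum. Each group had 3 libraries, numbered 1 to 3 in the labels. All libraries come from 1 cell line. Whether the replicates were cultured separately is not in the labels, so the spread behind each p-value is that of these libraries and may be purely technical. The question was whether these RNAs differed after 72 h of IL-10.

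NEAT1 is the scaffold of paraspeckles, nuclear bodies that form on its long isoform and hold RNA-binding proteins such as NONO and HNRNPK. MALAT1 collects in nuclear speckles beside splicing factors, and KCNQ1OT1 is an imprinted antisense RNA that silences neighbouring genes on the chromosome it is made from. A snoRNA host works differently: the snoRNA is cut from its intron and guides a chemical change of ribosomal RNA, while the spliced exons go to the cytoplasm, where many are decayed during translation. Several hosts begin with a 5′ terminal oligopyrimidine (TOP) tract like that of ribosomal protein mRNAs, which ties their translation and decay to cell growth.

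The 3′ ends of MALAT1 and of the long NEAT1 isoform are shown because neither is made by ordinary polyadenylation: both are cut by RNase P and protected by a triple helix of U-rich stretches with an A-rich tract. The TruSeq RNA kit named in the labels is of a kind that selects polyadenylated RNA, so it may hold only part of them. Both lie on the plus strand of GRCh38, in single-exon transcripts of GENCODE 29, at chr11:65506019-65506120 for MALAT1 and chr11:65445431-65445540 for NEAT1. Capitals mark the U-rich stretches (written with T) and A-rich bases. In MALAT1 these are only the unbroken run of A, and in NEAT1 the A-rich bases at the end.

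MALAT1: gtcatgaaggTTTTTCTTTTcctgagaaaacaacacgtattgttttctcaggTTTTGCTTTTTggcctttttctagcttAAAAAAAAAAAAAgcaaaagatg

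NEAT1: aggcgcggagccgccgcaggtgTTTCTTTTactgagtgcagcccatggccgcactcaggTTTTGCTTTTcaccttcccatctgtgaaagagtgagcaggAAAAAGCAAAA

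The MALAT1 stretch spans positions 8258 to 8359 of a transcript of 8708 bases and holds a run of 13 A at positions 8337 to 8349. The NEAT1 stretch is the last 110 bases of a transcript of 22743 bases.

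The start sites of hosts are shown because some hosts have a TOP-like start, a sequence feature that their choice by symbol did not use. For GAS5 the first 40 bases of an annotated spliced transcript are given, starting at chr1:173867989 on the minus strand (GENCODE 29, GRCh38). That transcript was taken from the 6 of 29 annotated for GAS5 that start with CTTT, so its start was fixed by that choice. For SNHG5 (chr6:85678709-85678778, minus strand), SNHG8 (chr4:118278717-118278786, plus strand) and ZFAS1 (chr20:49278597-49278666, plus strand) the RefSeq GRCh38.p14 sequence runs from 45 bases before the start to 25 after it. Capitals mark TATAA and CTTT.

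GAS5: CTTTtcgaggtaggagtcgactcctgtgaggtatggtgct

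SNHG5: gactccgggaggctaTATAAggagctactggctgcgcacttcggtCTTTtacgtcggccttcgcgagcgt

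SNHG8: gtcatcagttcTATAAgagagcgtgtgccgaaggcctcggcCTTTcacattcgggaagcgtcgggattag

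ZFAS1: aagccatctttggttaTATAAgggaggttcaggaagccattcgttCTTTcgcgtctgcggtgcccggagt

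These motifs were picked after the sequences had been seen and were searched on the sense strand only. Of the members, 7 have a RefSeq promoter entry, and NEAT1, KCNQ1OT1 and SNHG6 have none in the table used. SNHG5, SNHG8 and ZFAS1 hold both TATAA between 40 and 20 bases before the start and CTTT within 5 bases of it, as do 93 of 35116 promoters (0.265%). MALAT1 holds TATAA, which 3.77% of promoters hold, without CTTT, and GAS5, SNHG1 and EPB41L4A-AS1 hold neither in this window. Among GENCODE 29 transcripts, those that start with CTTT number 6 of 29 for GAS5, 3 of 23 for SNHG5, 3 of 5 for SNHG6, 1 of 5 for SNHG8 and 2 of 10 for ZFAS1. So 5 of 7 hosts have such a transcript, against 3.75% of 21663 genes tested with annotated transcripts. NEAT1, MALAT1 and KCNQ1OT1 have none.

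Recovered depth was 20750115 to 24222897 reads per library. IL-10 replicate 2 stood apart: its median absolute log2 deviation from the other 5 libraries was 0.49, against 0.12 to 0.18 for each of those, and across genes its deviation increased with GC content (Spearman rho 0.76). All 7 Kasumi-1 markers were present in every library, RUNX1T1 at 3071 to 3878 and KIT at 29296 to 54533. Reads of liver genes appeared in both replicate 2 libraries: 8 of 9 listed liver markers summed to 746 in the control one and 322 in the IL-10 one, and to 12.8 to 24.0 elsewhere. ALB stood at 112 and 31.7 in those libraries and at 0 to 0.890 in the other 4, where APOB and AFP were at 0. SERPINA1, the ninth marker, was at 879 to 1664 in every library. Of 9 markers of lymphoid, erythroid and fibroblast cells, 8 had a row and 7 were tested. For IL-10 against control 0 of 7 passed in limma (1 at an unadjusted p under 0.05), which does not say whether they were present. The 2 of highest mean, CD79A and CD8A, stood at 168 to 303 and at 36.8 to 56.9 over the 6 libraries.

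None of the 10 RNAs passed the threshold for IL-10 against control. In limma 0 of 10 had an adjusted p under 0.05 and 0 of 10 an unadjusted p under 0.05, where over all genes the shares were 0% and 1.57%. With the replicate as a block the same counts were 0 and 0 of 10, where over all genes the shares were 0% and 2.33%. On recovered reads edgeR and DESeq2 also called 0 of 10, with 0 of 10 at an unadjusted p under 0.05, where 1.17% and 0.428% of all genes were. Across the 10 the median log2 fold change was -0.03, with 4 above 0 and 6 below, beside 0.02 over all genes, of which 52% were above 0. The nuclear RNAs were low in both replicate 2 libraries. In IL-10 replicate 2 they stood at 31.7% to 53.7% of their mean in the 4 libraries of pairs 1 and 3, and the hosts at 77.4% to 116%. In control replicate 2 the ranges overlapped, at 54.7% to 78.7% for the nuclear RNAs and 76.1% to 105% for the hosts, of which EPB41L4A-AS1 was lowest.

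**Figure D1:**
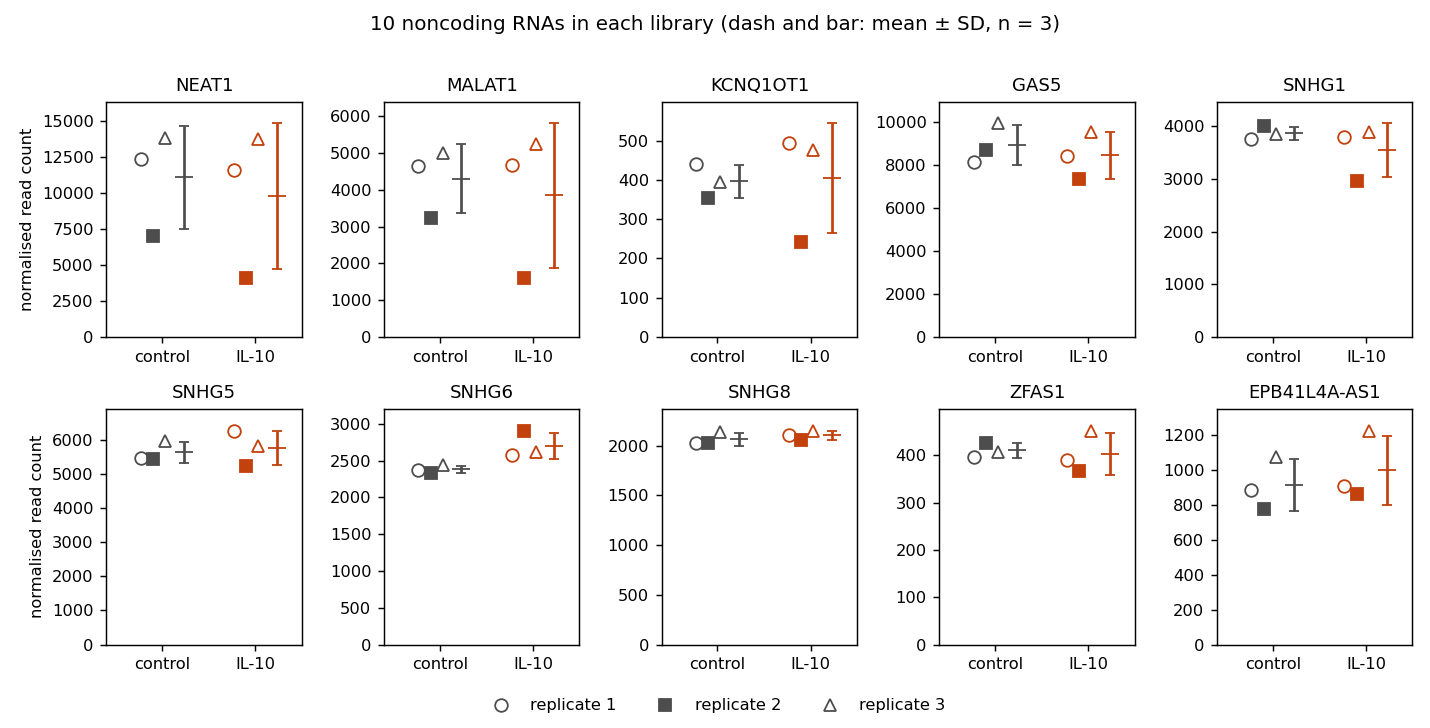
Normalised read count (linear axis from 0) of each RNA in the 3 control and 3 IL-10 libraries, with marker shape giving the replicate number and dash and bar the mean ± SD (n = 3). NEAT1, MALAT1 and KCNQ1OT1 are lowest in the replicate 2 library of each group, as are the hosts SNHG5, SNHG8 and EPB41L4A-AS1 by smaller margins. SNHG6 is the RNA whose IL-10 libraries all lie above its control libraries.

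**Figure D2:**
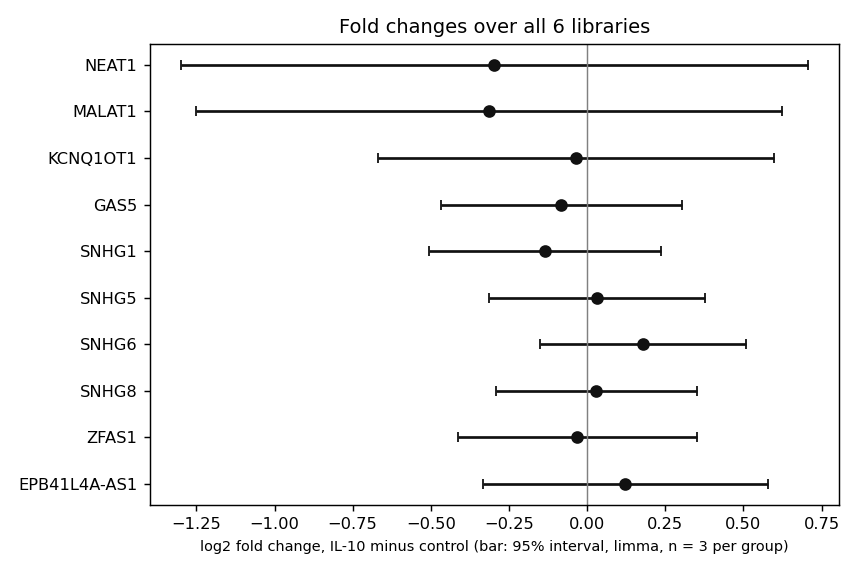
Log2 fold change of IL-10 over control for each RNA, with the 95% interval from limma (n = 3 per group). Every interval includes 0, and those of NEAT1 (-1.30 to 0.71) and MALAT1 (-1.25 to 0.62) are widest.

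NEAT1 (ENSG00000245532, chr11:65422774-65445540, plus strand) stood at 12356, 7035 and 13826 normalised reads in control replicates 1 to 3 and at 11588, 4079.7 and 13712 in IL-10 replicates 1 to 3. Both replicate 2 libraries were low, IL-10 replicate 2 most of all, and the groups overlapped. The means were 11072 ± 3573 in control and 9793 ± 5061 with IL-10 (SD, n = 3), a log2 fold change of -0.30 (SE 0.44, 95% interval -1.30 to 0.71, limma adjusted p = 0.982). Within pairs of the same number the log2 ratio was -0.09, -0.79 and -0.01. Without IL-10 replicate 2 the log2 fold change was 0.25, and with pairs 1 and 3 alone it was -0.05.

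MALAT1 (ENSG00000251562, chr11:65497688-65506516, plus strand), downstream of NEAT1, stood at 4660.0, 3236 and 5013 in control and at 4691, 1596 and 5263 with IL-10. Replicates 1 and 3 of both groups lay close together, and the replicate 2 libraries were again low. The means were 4303 ± 941 and 3849.9 ± 1973 (SD, n = 3), with a log2 fold change of -0.31 (SE 0.41, 95% interval -1.25 to 0.62, limma adjusted p = 0.982). Pairs 1 to 3 gave log2 ratios of 0.01, -1.02 and 0.07. Its value was 0.23 without IL-10 replicate 2 and 0.04 in pairs 1 and 3.

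KCNQ1OT1 (ENSG00000269821, chr11:2608328-2699994, minus strand, antisense to the potassium channel gene KCNQ1) stood at 439.7, 355 and 394 in control and at 495, 242 and 476 with IL-10. IL-10 replicate 2 was the lowest library and the other IL-10 libraries the highest, so the groups overlapped. The means were 396 ± 42.4 and 404 ± 141 (SD, n = 3), with a log2 fold change of -0.04 (SE 0.28, 95% interval -0.67 to 0.60, limma adjusted p = 0.992). The log2 ratios were 0.17, -0.55 and 0.27 in pairs 1 to 3. With pairs 1 and 3 only and the replicate as a block the log2 fold change was 0.22 (unadjusted p = 0.00908, limma adjusted p = 0.903). That fit takes its variance from all genes of like level, so its p-values do not measure the spread of KCNQ1OT1 itself. In that fit 0 of 10 members passed, where 0.0542% of all genes did, and KCNQ1OT1 and SNHG6, 2 of 10, had an unadjusted p under 0.05, where 4.23% of all genes did. Dropping IL-10 replicate 2 alone gave 0.30. KCNQ1 itself was at 0 to 1.78.

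NEAT1 and MALAT1 kept a nearly fixed ratio while both varied more than 3-fold. Their highest library exceeded their lowest 3.39-fold for NEAT1 and 3.30-fold for MALAT1, and in pairs 1 and 3 alone 1.19-fold and 1.13-fold. The ratio of NEAT1 to MALAT1 was 2.65, 2.17 and 2.76 in control and 2.47, 2.56 and 2.61 with IL-10, a 1.27-fold range. Against GAS5 the ratio of NEAT1 was 1.52, 0.810 and 1.39 in control and 1.37, 0.555 and 1.44 with IL-10, a 2.74-fold range. Counting error for NEAT1 and MALAT1 was 1.06% and 1.68% of the mean, where the coefficients of variation over 6 libraries were 38.2% and 34.5%. Among the 8488 genes whose mean reached 300, 93.2% varied less than NEAT1 and 89.4% less than MALAT1, and 69.6% less than KCNQ1OT1.

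In IL-10 replicate 2, NEAT1 stood at 31.7%, MALAT1 at 32.5% and KCNQ1OT1 at 53.7% of the mean of pairs 1 and 3. In control replicate 2 the shares were 54.7%, 65.9% and 78.7%. Low-GC transcripts were low in IL-10 replicate 2 as a class. Those of the 8488 genes with a known GC content were divided by it into 10 bins, whose median log2 deviation ran from -0.70 in the lowest bin to 0.98 in the highest, and each RNA was set beside the 848 genes of its bin. NEAT1 (GC 44.1%) deviated by -1.65 on the log2 scale where its bin had a median of -0.15, and 0% of that bin was lower. MALAT1 (GC 40.3%) deviated by -1.62 against a median of -0.49, with 1.65% lower, and KCNQ1OT1 (GC 43.7%) by -0.89 against -0.15, with 4.36% lower. In control replicate 2, where the bins had medians of -0.04 to 0.18, 0.708% of its bin was lower than NEAT1, 2.24% lower than MALAT1 and 8.73% lower than KCNQ1OT1.

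After correction of each library for GC content and length, NEAT1 was still at 43.8% and MALAT1 at 48.0% of pairs 1 and 3 in IL-10 replicate 2, and at 57.2% and 70.1% in control replicate 2. KCNQ1OT1 was at 91.3% and 80.1%. KCNQ1OT1 lies in the same GC bin as NEAT1, but its longest transcript is 91667 bases, where that of NEAT1 is 22743. The correction used GC content and length together, and the part of each in the shift of KCNQ1OT1 was not tested. Liver gene reads moved with both replicate 2 libraries, and the part of those reads in the low values was not tested. In bulk RNA, fewer cells that hold a transcript and less of it per cell cannot be told apart.

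**Figure D3:**
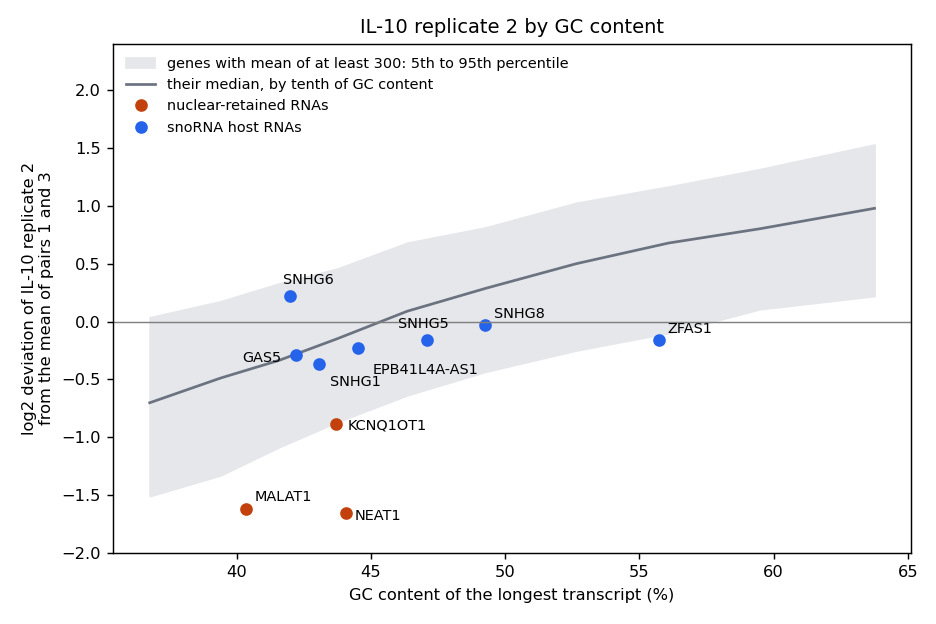
Log2 deviation of IL-10 replicate 2 from the mean of pairs 1 and 3 (vertical axis) against GC content of the longest transcript in percent, for the 10 RNAs over the median (line) and the 5th to 95th percentile (band) of genes whose mean reached 300. NEAT1 at -1.65 and MALAT1 at -1.62 lie under the band, KCNQ1OT1 at -0.89 and the host ZFAS1 at -0.16 just under it, and SNHG6 at 0.22 lies above the median of its GC range.

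Other nuclear long noncoding RNAs were low in the same library. From a list of 10 symbols, 7 had rows (8 rows, since LINC-PINT has a pair of IDs), of which 0 rose and 0 fell by the threshold, with a median log2 fold change of -0.15. In IL-10 replicate 2 all 8 rows were below pairs 1 and 3 (median log2 deviation -0.65), as were 11347 of all 21946 genes (median -0.04). The median GC content of the 8 was 42.6%, where the GC bins had medians of -0.33 and -0.15, and its part in this was not tested. In control replicate 2, 5 of 8 were below (median -0.05). TUG1 stood at 1525, 1557 and 1479.6 in control and at 1512, 898 and 1700.1 with IL-10. OIP5-AS1, also called cyrano and found in the cytoplasm as well, stood at 3141, 2979 and 3026 and at 3098, 2364 and 3137. In control replicate 2 TUG1 was the highest of 3 close control values and OIP5-AS1 the lowest of 3.

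FRMD8, a protein-coding neighbour of NEAT1 on chromosome 11 that codes for a partner of iRhom proteins, stood the other way in that library. It was at 771, 843 and 787 in control and at 757, 1559 and 746 with IL-10. It was highest in IL-10 replicate 2, and its GC content was 61.3%. Of 15 genes next to or antisense to members, 13 were tested and 0 passed, with a median log2 fold change of 0.13. In IL-10 replicate 2, 6 of those 13 stood below pairs 1 and 3, as did 11347 of all 21946 genes. The median log2 deviation of the 13 there was 0.40. Among those below was ZBTB37, beside GAS5, at -0.94, with a GC content of 39.3%. PRSS12, beside SNHG8, was the neighbour whose groups did not overlap, at 2.67 to 2.98 in control and 3.80 to 4.70 with IL-10, which is 3 or 4 reads per library.

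The 7 hosts summed to 23056, 23700.2 and 25831 in control and to 24455, 21759 and 25682 with IL-10, or 24196 ± 1452 and 23966 ± 2007 (SD, n = 3). The nuclear RNAs summed to 17456, 10625 and 19233 and to 16773, 5918 and 19451. The host sum thus spread less than the nuclear sum in each group, and its groups overlapped. Median log2 fold changes were 0.03 for the hosts and -0.30 for the nuclear RNAs. In pair 2 the medians were -0.06 and -0.79, in pair 1 they were 0.05 and 0.01, and in pair 3 they were 0.02 and 0.07.

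**Figure D4:**
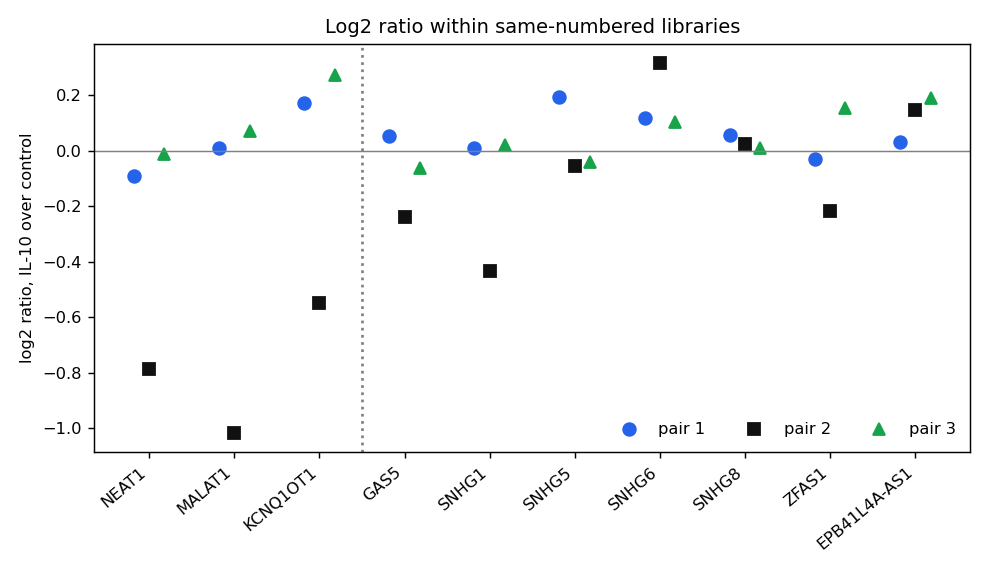
Log2 ratio of IL-10 over control within same-numbered libraries (vertical axis) for each RNA, with 1 marker per pair and a dotted line between the nuclear RNAs and the hosts. Pair 2 is lowest for NEAT1 (-0.79), MALAT1 (-1.02) and KCNQ1OT1 (-0.55), while for SNHG6 it is highest (0.32).

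GAS5 (ENSG00000234741, chr1:173863900-173868882, minus strand) builds up in growth-arrested cells and can act as a decoy for the glucocorticoid receptor. It stood at 8133, 8682 and 9948 in control and at 8435, 7357 and 9525 with IL-10. Replicate 3 was the highest library of each group, and the groups overlapped. The means were 8921 ± 930 and 8439 ± 1084 (SD, n = 3), with a log2 fold change of -0.08 (SE 0.17, 95% interval -0.47 to 0.30, limma adjusted p = 0.982). In IL-10 replicate 2 it was at 81.6% of pairs 1 and 3, and 55.3% of its GC bin was lower.

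SNHG1 (ENSG00000255717, chr11:62851988-62855914, minus strand), which carries a cluster of box C/D snoRNAs, stood at 3763, 4002 and 3844 in control and at 3789, 2959.6 and 3899 with IL-10. In the 4 libraries of pairs 1 and 3 it varied 1.04-fold, and IL-10 replicate 2 was the low library, at 77.4% of those. The log2 fold change was -0.13 (SE 0.16, 95% interval -0.51 to 0.24, limma adjusted p = 0.982). Its neighbour SLC3A2, an amino acid transporter subunit, was at 4674, 6369 and 4507 in control and 4679, 9900.1 and 4458 with IL-10. It was highest in IL-10 replicate 2, with a log2 deviation of 1.11 from pairs 1 and 3. The GC content of SLC3A2 was 57.4%, and genes of that GC bin had a median deviation of 0.68 in this library.

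SNHG5 (ENSG00000203875, chr6:85660950-85678748, minus strand) stood at 5473, 5451 and 5985 in control and at 6257, 5244 and 5816 with IL-10. The highest and the lowest library were both IL-10 libraries. Its log2 fold change was 0.03 (SE 0.15, 95% interval -0.31 to 0.38, limma adjusted p = 0.989).

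SNHG6 (ENSG00000245910, chromosome 8, 66921684 to 66926398, minus strand) was the member whose groups did not overlap. It stood at 2377, 2334 and 2434 in control and at 2576, 2908 and 2613 with IL-10. Every IL-10 library was above every control library, which is 1 of 10 members, beside 2.85% of all genes in that direction. No member (0 of 10) had every IL-10 library below the controls, as 3.02% of all genes did, and the share in either direction was 5.87%. The means were 2382 ± 50.3 and 2699 ± 182 (SD, n = 3), with a log2 fold change of 0.18 (SE 0.15, 95% interval -0.15 to 0.51), which did not pass the threshold (limma unadjusted p = 0.251, adjusted p = 0.982).

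The log2 ratio of SNHG6 was 0.12, 0.32 and 0.10 in pairs 1 to 3, and over 24 alternative settings its log2 fold change ran from 0.08 to 0.33 with 0 changes of sign. In IL-10 replicate 2 it was high for its GC content, with 91.8% of its bin lower. GC and length correction raised its level there from 116% to 160% (159.8%) of pairs 1 and 3. With that correction and the replicate block the log2 fold change was 0.33 (unadjusted p = 0.0121, limma adjusted p = 0.891), where 3.86% of all genes had an unadjusted p under 0.05. In pairs 1 and 3 with the block, where the variance is pooled over genes, it was 0.11 (unadjusted p = 0.0276, limma adjusted p = 0.999). Of its exon bases 36.4% are also covered by other genes, MCMDC2 on the opposite strand and the snoRNA gene SNORD87 within it. MCMDC2 was at 8.38 to 15.3 in every library, far under SNHG6.

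SNHG8 (ENSG00000269893, chr4:118278709-118279823, plus strand) was the steadiest of the 10 in the values as deposited. It stood at 2027, 2026 and 2139 in control and at 2105, 2062 and 2152 with IL-10, so that the highest library exceeded the lowest 1.06-fold. Its coefficient of variation over 6 libraries was 2.65%, close to the 2.19% that counting alone gives, and 0.424% of the 8488 genes had a smaller one. The log2 fold change was 0.03 (SE 0.14, 95% interval -0.29 to 0.35, limma adjusted p = 0.989), and IL-10 replicate 2 was at 97.9% of pairs 1 and 3. In that library 20.2% of its GC bin was lower. After GC and length correction IL-10 replicate 2 was at 112%. The highest corrected library then exceeded the lowest 1.17-fold, where SNHG1 had 1.14-fold and SNHG5 1.15-fold.

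ZFAS1 (ENSG00000177410, chr20:49278178-49295738, plus strand), a host antisense to the start of ZNFX1, stood at 397, 427 and 407 in control and at 389, 367 and 452 with IL-10. The IL-10 libraries enclosed the control libraries. Its log2 fold change was -0.03 (SE 0.17, 95% interval -0.41 to 0.35, limma adjusted p = 0.990). With a GC content of 55.7% it is the member richest in GC, and 2.95% of its GC bin was lower in IL-10 replicate 2. ZNFX1, at 1143, 1284 and 1098 in control and 1152, 1657 and 1107 with IL-10, was highest in that library. The GC content of ZNFX1 was 51.7%, and its log2 deviation there was 0.56 beside a bin median of 0.50.

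EPB41L4A-AS1 (ENSG00000224032, chr5:112160526-112164276, plus strand), host of SNORA13, stood at 886, 779 and 1075 in control and at 905, 863 and 1225 with IL-10. Replicate 3 was highest and replicate 2 lowest in both groups. Its log2 fold change was 0.12 (SE 0.20, 95% interval -0.33 to 0.58, limma adjusted p = 0.982), and the log2 ratio was 0.03, 0.15 and 0.19 in pairs 1 to 3. EPB41L4A-AS1, SNHG6 and SNHG8 were higher with IL-10 in all 3 pairs, 3 of 10 members beside 12.4% of all genes. NEAT1 was lower in all 3 pairs, 1 of 10 beside 10.6% of all genes. The antisense gene EPB41L4A, which covers 49.6% of its exon bases, had 1 to 8 reads per library. The library kit is of a kind that does not mark strand, and the use of strand in counting is not given in the sources used here, so reads of overlapping genes on opposite strands cannot be told apart.

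Levels between genes are compared per kilobase of merged exon. GAS5 was at 2391 ± 259 (SD over 6 libraries), SNHG8 at 2259 ± 59.8, SNHG6 at 2037 ± 169 and SNHG5 at 2033 ± 136, and the ranges of these neighbours overlapped. SNHG1 came next at 988 ± 100.4, apart from both sides. MALAT1 at 462 ± 159, NEAT1 at 458 ± 175, EPB41L4A-AS1 at 286 ± 49.0 and ZFAS1 at 181 ± 13.3 followed. The libraries of MALAT1 and NEAT1 reached down to 181 and 179, into the ranges of EPB41L4A-AS1 (233 to 366) and ZFAS1 (163 to 202), and the last pair did not overlap. KCNQ1OT1, whose annotated transcript is 91667 bases long, was at 4.37 ± 1.02, below all others. Per kilobase of the longest transcript the order at the top was SNHG5 at 5527, GAS5 at 5112, SNHG6 at 3920.0 and SNHG8 at 3103, and ZFAS1 at 378 stood above EPB41L4A-AS1 at 322. NEAT1 had the highest mean read count of the 10 but stood below 5 hosts per length, with 22767 bases of merged exon taken for it. Reads were not divided among its 8 annotated transcripts. A shorter length would place NEAT1 higher, so its place in this order depends on the length taken.

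**Figure D5:**
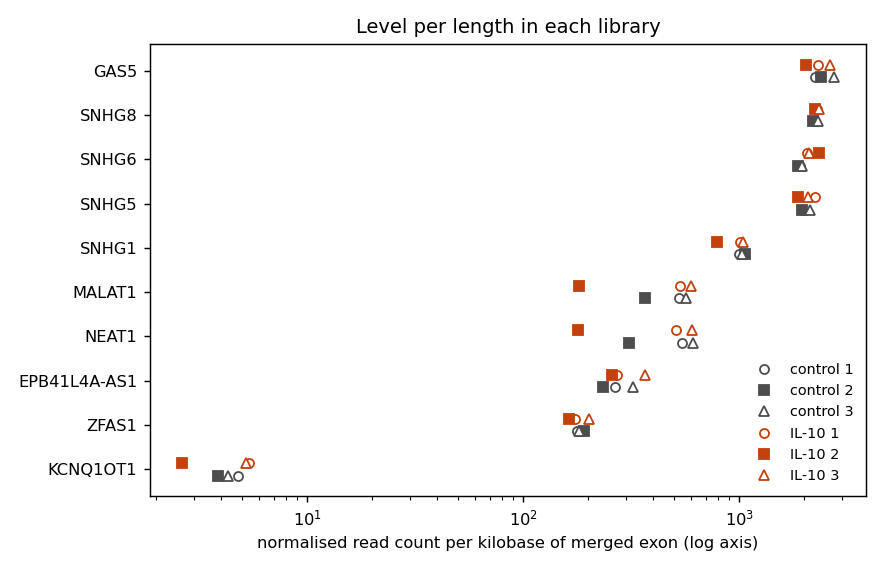
Normalised read count per kilobase of merged exon (log axis) for each RNA, with 1 marker per library, shape for replicate number and colour for group. The order runs from GAS5 at 2391 to KCNQ1OT1 at 4.37, and the replicate 2 markers of MALAT1 and NEAT1 stand to the left of the others.

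The snoRNAs themselves were nearly unseen. Of 26 snoRNAs listed in the introns of these hosts, 3 had a row, SNORD12B and SNORD12C of ZFAS1 and SNORA13 of EPB41L4A-AS1. Their sequences are shown because the first 2 are box C/D snoRNAs of the same host, with capitals for box C (TGATGA), box D (CTGA) and, in SNORA13, box ACA. They lie on the plus strand of GRCh38 at chr20:49280319-49280409, chr20:49278940-49279028 and chr5:112161485-112161617 (GENCODE 29).

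SNORD12B: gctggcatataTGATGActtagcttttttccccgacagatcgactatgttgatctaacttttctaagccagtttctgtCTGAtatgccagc

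SNORD12C: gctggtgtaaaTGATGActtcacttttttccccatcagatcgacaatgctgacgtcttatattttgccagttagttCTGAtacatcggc

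SNORA13: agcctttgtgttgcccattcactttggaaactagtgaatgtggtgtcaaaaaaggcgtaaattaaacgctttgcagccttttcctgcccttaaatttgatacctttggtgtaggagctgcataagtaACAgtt

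SNORD12B and SNORD12C were identical at 67 of 92 aligned positions (72.8%). SNORD12B stood at 6.52, 14.9 and 6.23 in control and at 10.7, 8.23 and 8.55 with IL-10, and SNORD12C at 7.45, 13.9 and 7.12 and at 7.48, 8.23 and 6.65. SNORA13 stood at 7.45, 4.97 and 6.23 and at 6.41, 3.53 and 4.75. SNORD12B and SNORD12C were both highest in control replicate 2. The groups overlapped for all 3 snoRNAs, and their log2 fold changes were 0.08, -0.26 and -0.31 (limma adjusted p = 0.982 or above). With 7 to 15 reads per library the 95% interval of SNORD12B ran from -0.88 to 1.05 on the log2 scale. Mature snoRNAs lack a poly(A) tail and are poorly held by libraries of this kind.

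Of 16 other noncoding snoRNA hosts, 0 rose and 0 fell by the threshold, 15 had a log2 fold change above 0, and the median was 0.06. In IL-10 replicate 2, 16 of 16 stood above pairs 1 and 3 (median log2 deviation 0.33), while 6 of the 7 hosts described above stood below (median -0.16). The median GC contents were 51.3% and 44.5%, and their part in this was not tested. DANCR stood at 7318, 7937 and 5884 in control and at 7318, 10583 and 5799 with IL-10, and SNHG29 at 4983, 5151 and 5841 and at 5333, 6986 and 5871. In pairs 1 and 3 the median log2 ratio over the 16 was -0.01 and -0.04.

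The mRNAs of proteins that work with these RNAs did not pass either, with 0 rising and 0 falling in each list. The 10 paraspeckle proteins had a median log2 fold change of 0.05, among them HNRNPK at 17025 to 19613 in control and 16959 to 19685 with IL-10, and NONO at 14329 to 14823 and 14661 to 16200.0. The 10 nuclear speckle proteins had -0.04, with SRRM2 at 10364 to 12464 and 11456 to 14122 and SRSF3 at 11008 to 13142 and 10511 to 12214. In IL-10 replicate 2, where NEAT1 was lowest, HNRNPK and NONO deviated from pairs 1 and 3 by 0.16 and 0.14 on the log2 scale. The 8488 genes whose mean reached 300 had a median of 0.17 there, and 2 of the 10 paraspeckle proteins stood below pairs 1 and 3.

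The 13 snoRNP core and assembly proteins had a median of 0.07. FBL, the methyltransferase of box C/D particles, was at 7049, 8017 and 7154 in control and 7843, 13343 and 6761 with IL-10, and NOP56, its partner, at 5206 to 7780.4 and 5124 to 8215. The 14 nonsense-mediated decay factors, which degrade spliced host RNAs, had 0.11. UPF1, the decay helicase, was at 7138, 8773 and 6569 and at 7301, 15021 and 6624, and EIF4A3 at 5933 to 7947 and 5919 to 10284. FBL and UPF1 were highest in IL-10 replicate 2, and their GC contents were 54.3% and 60.5%.

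The 15 tested TOP mRNAs outside the ribosomal proteins had a median of 0.06, with EEF1A1 at 230831 to 268904 in control and 245634 to 265063 with IL-10. The 14 coding snoRNA hosts had 0.09, with EEF2 at 112722 to 126293 and 117185 to 214081 and HSPA8 at 38088 to 59276 and 37046 to 64628. Of 6 small polymerase III and nuclear RNAs, RN7SL2 alone had a row, at 0 to 2.85.

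By likeness of pattern, measured as Pearson's r of log2(value + 1) over the 6 libraries among 10504 genes whose mean reached 100, NEAT1 was closest to CUL4B, PPP2R5C and RNMT, each at 0.999. These points share IL-10 replicate 2, the low library in each case. CUL4B stood at 1534, 1127 and 1690.4 in control and at 1535, 812 and 1647 with IL-10, the same order of libraries as NEAT1 apart from replicate 1. MALAT1 was at 0.987 and rank 115, KCNQ1OT1 at 0.914 and rank 1193, and GAS5 at 0.762 and rank 2690. GAS5 was closest to SYAP1 (0.993), GNAI1 (0.987) and WHAMM (0.985), and SYAP1 stood at 319.5, 359 and 418 in control and at 326, 275 and 393 with IL-10.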

How the data were processed

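Per the labels, Trizol RNA went into Illumina TruSeq RNA libraries. The values the authors deposited are named FPKM but are a normalised signal: read counts divided by 1 size factor (0.851 to 1.12) per library, since 100% were whole multiples of 1 step within 0.01 read. For control replicate 2 that step, 0.994, is too near 1 for an automatic check, and a count test leaving it out was added. GRCh38, hg38 and edgeR 3.18.1 appear in the submitters' processing notes without a stated role. The aligner, the counter, its annotation and its strand setting were not given in the sources used here. Counting errors cover counting only.

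The planned test, written for FPKM, was kept: log2(value + 1) was fitted with limma 3.58.1 (R 4.3.3) and its intensity trend. Genes needed a value of 1 or more in 3 or more libraries. P-values were two-sided and Benjamini-Hochberg adjusted over 21946 genes, with 0.05 as the threshold. This scale understates fold changes of low genes. edgeR 4.0.16 (quasi-likelihood) and DESeq2 1.42.0 on recovered reads were alternatives, beside other pseudocounts, filters, scalings and weights, the replicate block, a loess correction for GC content and length (span 0.3) and leaving out libraries. Only the main limma fit was tested on simulated data, which held no outlying library and no GC trend. Alternatives added after seeing the data were edgeR without control replicate 2 and pairs 1 and 3 without the block. The 10 members and 16 gene lists were chosen with earlier results of these data known.

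Named genes are the members, hosted snoRNAs with a row, the 2 of highest mean in each other list, the 3 most like NEAT1 and GAS5, and neighbours that passed the filter; 1 of these is not reported here. KCNQ1, MCMDC2, RUNX1T1, ALB, APOB and AFP were chosen after their values were seen. Gene names were found for 26883 IDs, and 27052 are in GENCODE 29.

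Replicate numbers were checked for pairing: deviations from the group means of same-numbered libraries correlated at 0.367, 0.605 and 0.726 over 11605 genes whose mean reached 50, so same-numbered libraries were treated as pairs. The pairing comes from these values, as the labels give only the number.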

Additional observations from a re-analysis of the deposited data

How the results depend on the processing

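Over 24 alternatives for each of the 10 RNAs (240 in all), 0 passed the threshold, with adjusted p of 0.545 to 1.00 in limma, edgeR or DESeq2. Log2 fold changes that were not called changed sign in 30 of 240: 10 for KCNQ1OT1, 4 each for MALAT1 and GAS5, 3 each for SNHG5 and ZFAS1, 2 each for SNHG1 and SNHG8, 1 each for NEAT1 and EPB41L4A-AS1 and 0 for SNHG6. Leaving out 1 library at a time moved the log2 fold change over these ranges: NEAT1 -0.63 to 0.25, MALAT1 -0.63 to 0.23, KCNQ1OT1 -0.22 to 0.30, GAS5 -0.17 to 0.01, SNHG1 -0.21 to -0.01, SNHG5 -0.03 to 0.10, SNHG6 0.12 to 0.21, SNHG8 0.01 to 0.06, ZFAS1 -0.12 to 0.03 and EPB41L4A-AS1 -0.03 to 0.25. The highest values of NEAT1 and MALAT1 were those without IL-10 replicate 2. Scaling to equal totals moved the median of all genes from 0.02 to -0.08. The count of genes past the threshold was 0 in every setting but 1: in pairs 1 and 3 alone, fitted with the replicate block, it was 11 of 20308 (0.0542%), none of them a member, and the cause was not tested. The replicate block on all 6 libraries left the count at 0 (512 unadjusted) and changed no call, with NEAT1 at an adjusted p of 0.851 in limma. The 95% interval of NEAT1 on the log2 scale ran from -1.30 to 0.71 without the block, from -0.72 to 0.13 with it and from -0.13 to 0.02 in pairs 1 and 3 with it. The last interval, like every p-value of that fit, rests on a variance pooled over genes of like level. It is not a measure of the spread of NEAT1 itself.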
